A study of Homo sapiens with 12 samples.

Results

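The 36 genes described here carry out, regulate or balance the synthesis of cholesterol and fatty acids, the classical target programme of the sterol regulatory element binding proteins (SREBPs). They were taken from the tables by gene symbol, and each had 1 row among the 26226 genes of the KBM7 table and the 28328 genes of the K562 table. They comprise 8 enzymes of the mevalonate and isoprenoid steps, 11 enzymes between squalene and cholesterol, 4 regulators, 2 sterol transport genes, 3 genes induced by the liver X receptors (LXRs) and 8 enzymes of fatty acid synthesis. The first 2 groups are called the sterol branch (19 genes) and the last the fatty acid branch (8 genes).

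RNA was sequenced from KBM7 and K562 cells 72 h after siRNA transfection, with either pooled siRNAs that target USP15 (siUSP15) or a non-targeting pool (siCtrl). Both lines come from chronic myeloid leukemia in blast crisis, and KBM7 cells are nearly haploid. USP15 encodes a deubiquitinase, an enzyme that removes ubiquitin from other proteins. KBM7 had 2 libraries with siUSP15 and 2 with siCtrl, and K562 had 4 with siUSP15 and 4 with siCtrl. No source says that replicates were separate cultures, so p-values measure the spread between libraries only, and with 1 pool of siRNAs per arm the loss of USP15 and any other effect of that pool cannot be told apart.

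SREBPs are made as precursors in the membrane of the endoplasmic reticulum, bound to SCAP. When membrane sterols are low, SCAP escorts them to the Golgi, where they are cut and the freed part enters the nucleus and switches on the genes of sterol and fatty acid synthesis; when sterols are plentiful, INSIG proteins hold SCAP back. The product of SREBF2 acts mainly on the sterol genes and that of SREBF1 mainly on the fatty acid genes, while LXRs sense oxysterols and induce export genes and MYLIP. Proliferating leukemia cells are known to draw on this pathway for membrane lipids.

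Start-site windows of RefSeq on GRCh38.p14, from 250 bases before to 50 bases after the start, were found for 31 of the 36 genes; ABCG1, ACAT2, FASN, FDFT1 and SQLE had none in the table. The letters searched on both strands were TCACNCCAC for a sterol response element (SRE), CCAAT for the NF-Y box, GGGCGG for the Sp1 box and CACGTG for the E-box, none of which is part of another. NF-Y and Sp1 are known partners of SREBPs at their targets. The NF-Y box stood in the windows of 23 of the 31 genes (74.2%), against 43.1% of genes tested in KBM7 and 39.7% of all 27305 genes with a window. In the sterol branch 14 of 16 genes (87.5%) held it. The Sp1 box stood in 30 of 31 (96.8%), against 76.5% of genes tested in KBM7 and 48.3% of all genes. The E-box stood in 5 of 31 (16.1%), against 12.6% and 8.77%. The strict SRE letters stood only in SREBF2 among the 31 (3.23%), against 1.45% of genes tested in KBM7 and 1.39% of all genes. A match is a stretch of letters and not a measured binding site. The windows of SREBF2, which holds the SRE letters, and of 4 other genes are shown from 5′ to 3′. HMGCS1, MSMO1 and INSIG1 had large falls with siUSP15 in K562 replicates 1 and 2, and SCD had the highest level per kilobase. The SRE and the NF-Y box, on either strand, are in capitals.
SREBF2, chr22:41832855-41833154, plus strand: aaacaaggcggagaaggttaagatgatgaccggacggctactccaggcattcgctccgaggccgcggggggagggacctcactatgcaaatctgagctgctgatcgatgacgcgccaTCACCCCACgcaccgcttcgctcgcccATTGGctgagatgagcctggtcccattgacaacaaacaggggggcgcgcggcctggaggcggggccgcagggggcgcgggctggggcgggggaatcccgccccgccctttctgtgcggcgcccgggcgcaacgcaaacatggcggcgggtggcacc
HMGCS1, chr5:43313363-43313662, minus strand: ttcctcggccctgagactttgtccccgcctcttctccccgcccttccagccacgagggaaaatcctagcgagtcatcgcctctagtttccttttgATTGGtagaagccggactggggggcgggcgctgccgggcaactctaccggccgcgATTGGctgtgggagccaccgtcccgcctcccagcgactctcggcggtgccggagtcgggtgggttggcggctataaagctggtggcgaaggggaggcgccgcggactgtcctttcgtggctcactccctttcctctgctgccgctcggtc
MSMO1, chr4:165327419-165327718, plus strand: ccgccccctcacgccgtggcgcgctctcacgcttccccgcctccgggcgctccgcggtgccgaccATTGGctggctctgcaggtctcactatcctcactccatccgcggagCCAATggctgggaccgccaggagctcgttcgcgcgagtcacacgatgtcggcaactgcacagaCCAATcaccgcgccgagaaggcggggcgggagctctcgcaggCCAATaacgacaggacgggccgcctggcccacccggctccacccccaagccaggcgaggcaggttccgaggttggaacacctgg
INSIG1, chr7:155297628-155297927, plus strand: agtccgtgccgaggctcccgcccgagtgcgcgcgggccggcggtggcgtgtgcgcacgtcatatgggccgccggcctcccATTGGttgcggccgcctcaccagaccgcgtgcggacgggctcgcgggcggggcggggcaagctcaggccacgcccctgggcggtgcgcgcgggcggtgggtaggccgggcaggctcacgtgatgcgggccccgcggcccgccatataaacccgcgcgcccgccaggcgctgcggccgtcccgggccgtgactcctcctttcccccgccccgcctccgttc
SCD, chr10:100346983-100347282, plus strand: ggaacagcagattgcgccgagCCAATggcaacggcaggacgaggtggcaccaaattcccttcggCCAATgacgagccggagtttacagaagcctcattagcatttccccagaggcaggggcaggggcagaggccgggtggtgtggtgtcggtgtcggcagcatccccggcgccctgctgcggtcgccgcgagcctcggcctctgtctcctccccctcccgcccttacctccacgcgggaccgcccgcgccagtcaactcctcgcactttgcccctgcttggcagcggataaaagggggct
In the windows shown MSMO1 held 4 NF-Y boxes, HMGCS1 and SCD 2 each, and INSIG1 and SREBF2 1 each. Another window of HMGCS1, chr5:43313132-43313431, held 0. The window of CYP51A1, the gene with the largest fall in KBM7, is not shown and held 0. In SREBF2 the SRE letters lay at 133 to 125 bases before the start.

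Libraries held 23450607 to 29441118 counts in KBM7 and 23020401 to 43566543 in K562. Levels are counts relative to the library total (CPM), scaled by TMM within each line, so levels of KBM7 and K562 stand on separate scales. USP15 had 113 and 114 CPM in siUSP15 libraries, against 209.8 and 216 CPM in siCtrl libraries in KBM7, and the difference, on the log2 scale as all differences below, was -0.91 ± 0.04 SE. In K562 it had 116 and 134 CPM with siUSP15, against 269 and 275 CPM with siCtrl in set 1 and 191 and 197 CPM with siUSP15, against 343 and 330.0 CPM with siCtrl in set 2. These sets are replicates 1 and 2 (set 1) and replicates 3 and 4 (set 2), which the first principal component of the 8 K562 libraries separated with 68.9% of the variance. The K562 table is called batch corrected in its name, and what the sets are is given nowhere in the sources. Mitochondrial genes took 5.13% and 5.43% of counts with siUSP15 and 4.83% and 4.98% with siCtrl in set 1, 3.27% and 3.27% with siUSP15 and 3.20% and 3.26% with siCtrl in set 2, and 2.67% and 2.22% with siUSP15 and 2.06% and 2.67% with siCtrl in KBM7. The part of this share in the results was not tested.

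Marker lists of cell types also differed between groups. The 5 erythroid markers summed to 20.6 to 22.6 CPM in KBM7 siUSP15 libraries and 46.8 to 54.1 CPM in KBM7 siCtrl libraries, with GATA1, an erythroid transcription factor, at 18.5 and 18.8 CPM against 31.98 and 33.2 CPM. The 4 myeloid and general blood markers, SPI1, CD33, MPO and PTPRC, summed to 694 to 700.0 CPM in KBM7 siUSP15 libraries and 649 to 653 CPM in KBM7 siCtrl libraries. PTPRC held most of that sum, at 484 and 486 CPM against 451 and 457 CPM, and single markers moved apart. MPO, the myeloid peroxidase, was at 15.7 and 19.8 CPM in KBM7 siUSP15 libraries and 5.93 and 6.22 CPM in KBM7 siCtrl libraries, whereas CD33 was at 79.2 and 82.6 CPM with siUSP15 and 93.1 and 98.1 CPM with siCtrl. In K562 set 1 the 4 blood markers summed to 55.8 to 64.5 CPM with siUSP15 and 97.3 to 97.5 CPM with siCtrl, whereas in set 2 they summed to 42.1 to 44.1 CPM with siUSP15 and 45.7 to 48.8 CPM with siCtrl. The erythroid list summed to 1867 to 2169 CPM with siUSP15 and 1985 to 2012 CPM with siCtrl in set 1, and to 2207 to 2435 CPM with siUSP15 and 2546 to 2653 CPM with siCtrl in set 2. Of markers of other tissues (ALB, EPCAM, COL1A1 and PECAM1), ALB was not analysed in KBM7. The other 3 summed to 11.9 to 15.7 CPM in KBM7 siUSP15 libraries and 25.4 to 29.6 CPM in KBM7 siCtrl libraries, most of it from PECAM1. In K562 all 4 summed to 95.1 to 97.3 CPM with siUSP15 and 102.1 to 103.7 CPM with siCtrl in set 1, and to 88.7 to 99.5 CPM with siUSP15 and 97.0 to 98.4 CPM with siCtrl in set 2. EPCAM held most of these K562 sums, at 83.4 to 95.2 CPM over the K562 libraries. The part of these shifts in the results was not tested, and in bulk RNA fewer cells of a type and less RNA per cell cannot be told apart.

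In KBM7, siUSP15 libraries had lower levels of nearly the whole sterol and fatty acid synthesis programme. Of the 35 genes above the filter on low counts, 28 fell and 0 rose at an adjusted p under 0.05 (edgeR's quasi-likelihood test, Benjamini-Hochberg adjustment over 14980 genes). Across all genes tested 15.8% fell and 13.2% rose. At an unadjusted p under 0.05, 31 of the 35 were lower and 0 higher, while 6071 of all 14980 genes passed in either direction. DESeq2 and limma-voom called 25 and 28 lower and 0 higher, and 2556 and 4343 of all genes in either direction. The median log2 difference was -0.43 over the 35 genes, with a range of -0.77 to 0.01, and 0.00 over all genes. The sterol branch had 16 of 19 genes lower (median -0.47) and the fatty acid branch 7 of 8 (median -0.38). The largest falls were those of CYP51A1 (-0.77), SQLE (-0.75), MYLIP (-0.75), SCD (-0.69) and DHCR7 (-0.68). The 7 tested genes that did not pass were PMVK, GGPS1, NSDHL, SCAP, NPC1, ABCA1 and ACSS2. With each library left out in turn 25 of the 28 calls held. TM7SF2 lost its call without siCtrl replicate 1, siCtrl replicate 2 or siUSP15 replicate 2 (adjusted p up to 0.195 by edgeR), HSD17B7 without siCtrl replicate 1 (0.102) and ACACA without siCtrl replicate 1 or siUSP15 replicate 1 (up to 0.393).

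In K562 most of these genes were lower with siUSP15 in set 1, and 1 passed the test in set 2. In set 1, 22 of 34 tested genes fell and 4 rose (edgeR, over 13731 genes), while 18.7% of all genes fell and 18.0% rose. The median log2 difference was -0.23 over the 34 genes, -0.24 in the sterol branch and -0.20 in the fatty acid branch, against -0.01 over all genes. Without siUSP15 replicate 2 that of the fatty acid branch was -0.10. MSMO1 (-0.89), INSIG1 (-0.87), HMGCS1 (-0.70) and ACSS2 (-0.60) fell most, and PMVK, LSS, FADS2 and MYLIP were the 4 that rose. Several of the 26 calls were lost without siCtrl replicate 1, siCtrl replicate 2 or siUSP15 replicate 2. They were those of MVK, PMVK, FDPS, LSS, HSD17B7, SCAP, NPC1, FASN, SCD, FADS1 and FADS2. The other calls held with each library left out in turn.

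In set 2, LSS alone passed, as higher, and 0 genes fell by edgeR, while 1.25% of all genes fell and 1.19% rose. At an unadjusted p under 0.05, 1 gene was lower and 3 were higher, while 2329 of all 13731 genes passed in either direction. DESeq2 and limma-voom each called LSS alone among the 34 genes, and both also called genes outside the 34. The median log2 difference was 0.03 over the 34 genes, 0.04 in the sterol branch and 0.06 in the fatty acid branch. Without siCtrl replicate 3 LSS lost its call (0.00393 in all libraries, 0.114 without it, adjusted p of edgeR).

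**Figure D1:**
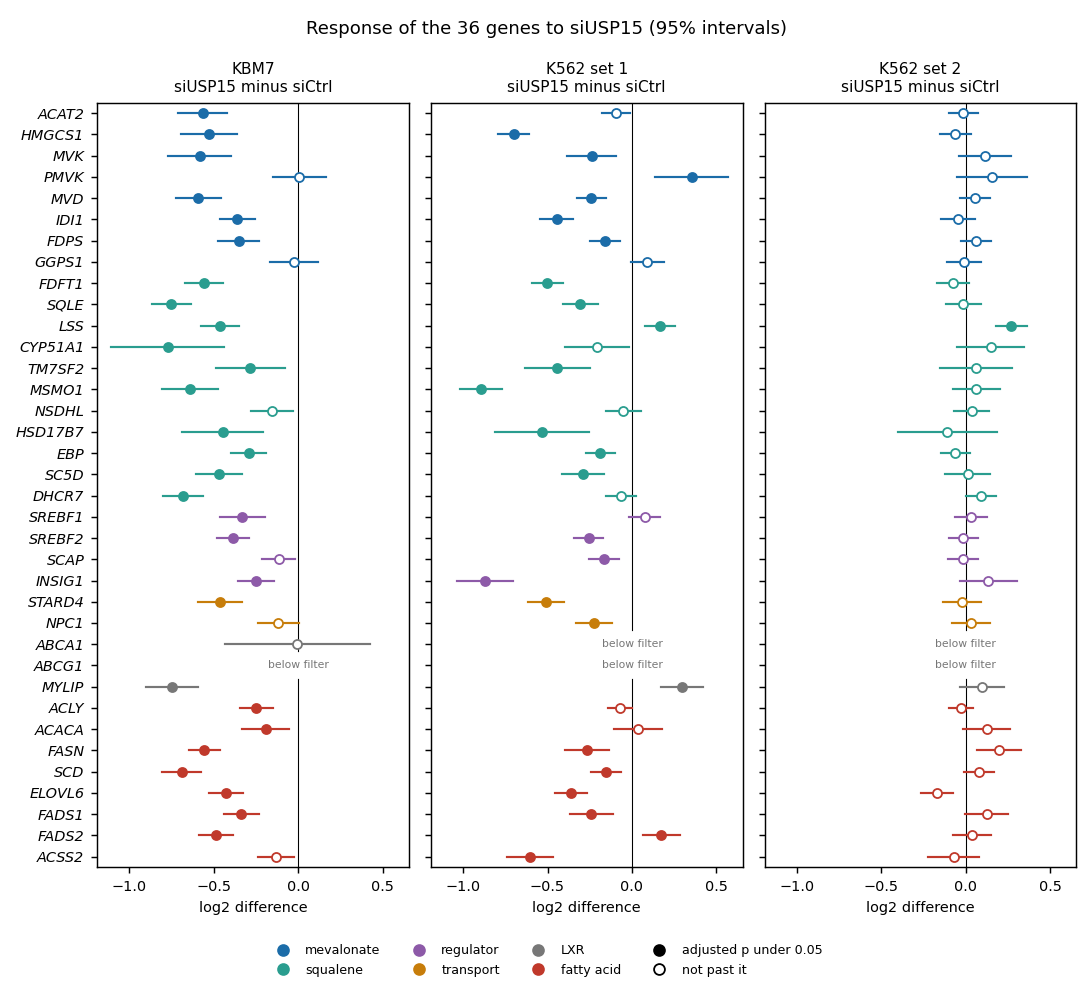
Log2 difference of siUSP15 against siCtrl (points) with 95% intervals (lines) for each of the 36 genes, in KBM7 (left), K562 set 1 (middle) and K562 set 2 (right). Colours give the role and filled points an adjusted p under 0.05; 28 points lie filled and left of 0 in KBM7, 22 in set 1 and 0 in set 2.

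Over both sets, with the set as a block, 7 of 34 genes fell and 2 rose in K562 (edgeR), while 8.90% of all genes fell and 6.88% rose. HMGCS1, IDI1, FDFT1, EBP, STARD4, ELOVL6 and ACSS2 were lower, with log2 differences of -0.38, -0.25, -0.29, -0.12, -0.27, -0.27 and -0.35, and LSS (0.22) and MYLIP (0.20) were higher. Of the 9 calls 7 were lost without some single library: 2 genes, LSS and ELOVL6, kept theirs with any library left out, and the count was 2 without siCtrl replicate 1, siCtrl replicate 2 or siUSP15 replicate 1, and 3 when siUSP15 replicate 2 was left out. Taking the replicate number as the block gave a count of 2, and called 1022 of all genes. With no block edgeR called 0 of the 34 and 0 of all genes tested, so that USP15 itself was not called. Of the 34, 6 had an unadjusted p under 0.05, but the number over all genes at that threshold was not counted. Limma-voom also called 0 of the 34 and 0 of all genes, and DESeq2 called 1 of the 34 and 322 of all genes.

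The responses of the sets were compared directly. In 18 of 34 genes the log2 difference was lower in set 1 than in set 2, and in 0 it was higher (edgeR, interaction of set and siRNA), while over all genes the response in set 1 was lower for 6.08% and higher for 6.91%. At an unadjusted p under 0.05, 24 were lower and 1, MYLIP, higher, while 3894 of all 13731 genes passed in either direction. DESeq2 called 13 and limma-voom 18 lower and 0 higher, and 1099 and 1811 of all genes in either direction. The median difference of the responses was -0.25 over the 34 genes and -0.01 over all genes. INSIG1 (-1.01 ± 0.11 SE) and MSMO1 (-0.96 ± 0.09 SE) differed most. The response of USP15 itself differed in the same contrast (-0.32 ± 0.08 SE), a call that was lost without siCtrl replicate 1, 2 or 4 (adjusted p up to 0.0615, edgeR). With each library left out in turn 8 genes kept their call: HMGCS1, IDI1, FDFT1, MSMO1, INSIG1, STARD4, FASN and ACSS2. The count was 8 without siCtrl replicate 1, 9 without siCtrl replicate 3 and 11 without siUSP15 replicate 2.

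The siCtrl libraries of the sets already differed in these genes. In set 1 siCtrl libraries, 24 of 34 genes were higher than in set 2 siCtrl libraries and 1, PMVK, was lower (edgeR), while 29.7% of all genes were higher and 27.2% lower. The median difference was 0.31 over the 34 genes, 0.32 in the sterol branch and 0.23 in the fatty acid branch, against 0.02 over all genes. INSIG1 (1.45 ± 0.08 SE), MSMO1 (1.37 ± 0.06 SE), FADS1 (1.11 ± 0.06 SE) and ACSS2 (1.07 ± 0.07 SE) differed most. USP15 was lower in set 1 siCtrl libraries (-0.31 ± 0.05 SE). With each library left out in turn 21 of the 25 calls held, while those of HMGCS1 (adjusted p up to 0.345, edgeR), MYLIP (up to 0.245), CYP51A1 (up to 0.192) and HSD17B7 (up to 0.157) were lost without siCtrl replicate 1, 3 or 4, and those of CYP51A1 and HSD17B7 also without siCtrl replicate 2. The response in set 1, the difference of the responses and this contrast share the set 1 siCtrl libraries. The summed blood markers and the mitochondrial share given above were also higher in the set 1 siCtrl libraries than in those of set 2, and their part in the result was not tested.

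**Figure D2:**
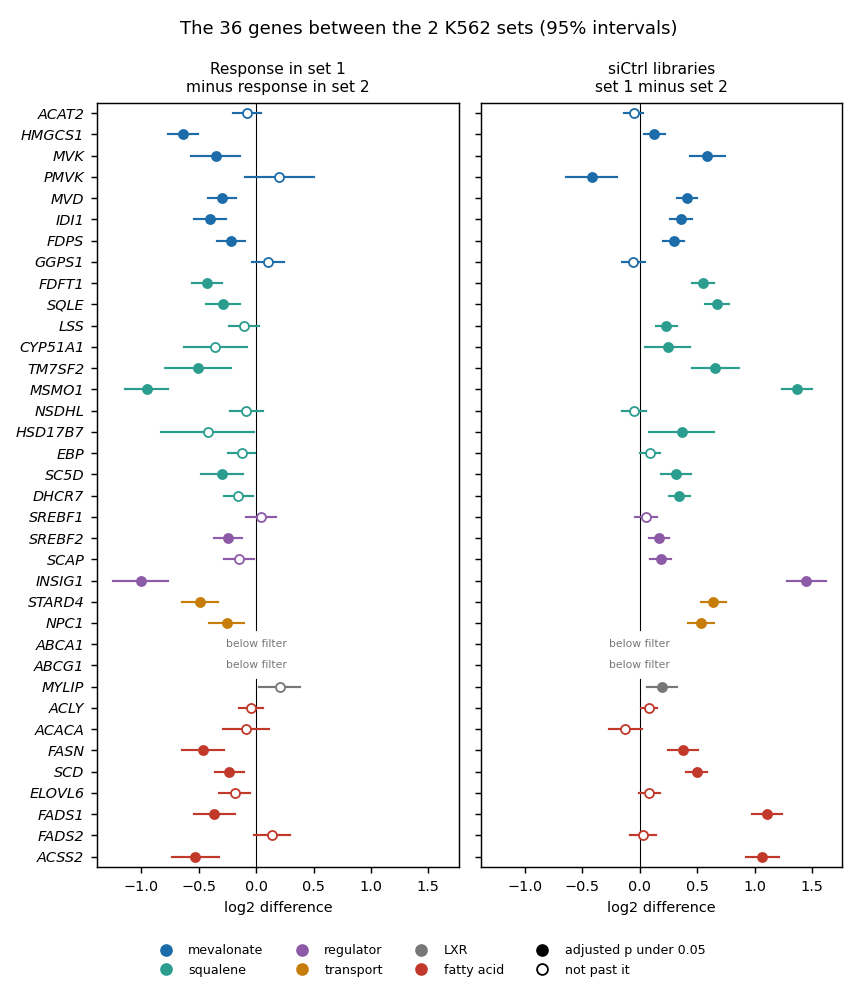
Log2 differences with 95% intervals for the 36 genes: response to siUSP15 in set 1 minus that in set 2 (left), and siCtrl libraries of set 1 minus those of set 2 (right). Filled points have an adjusted p under 0.05; 18 lie left of 0 on the left and 24 right of 0 on the right, and both panels use the set 1 siCtrl libraries.

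Averaged per library, the sterol branch stood at 5.78 and 5.85 mean log2 CPM in KBM7 siUSP15 libraries and 6.25 and 6.28 in KBM7 siCtrl libraries. In K562 set 1 it stood at 6.18 and 6.13 with siUSP15 and 6.42 and 6.39 with siCtrl, and in set 2 at 6.15 and 6.10 with siUSP15 and 6.09 and 6.08 with siCtrl. The set 1 siCtrl libraries were thus the highest of the 8 K562 libraries, and the set 1 siUSP15 libraries lay near those of set 2. The fatty acid branch stood at 7.88 and 7.96 in KBM7 siUSP15 libraries and 8.31 and 8.29 in KBM7 siCtrl libraries. In K562 it stood at 8.16 and 8.01 with siUSP15 and 8.27 and 8.27 with siCtrl in set 1, and at 7.91 and 7.93 with siUSP15 and 7.87 and 7.90 with siCtrl in set 2. The gap between the branches, sterol minus fatty acid, was -2.10 and -2.11 in KBM7 siUSP15 libraries and -2.06 and -2.01 in KBM7 siCtrl libraries. The gap was -1.98 and -1.88 with siUSP15 and -1.85 and -1.88 with siCtrl in set 1, and -1.76 and -1.83 with siUSP15 and -1.77 and -1.82 with siCtrl in set 2. In KBM7 and set 1 the mean gap thus moved by less than the mean of either branch did.

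**Figure D3:**
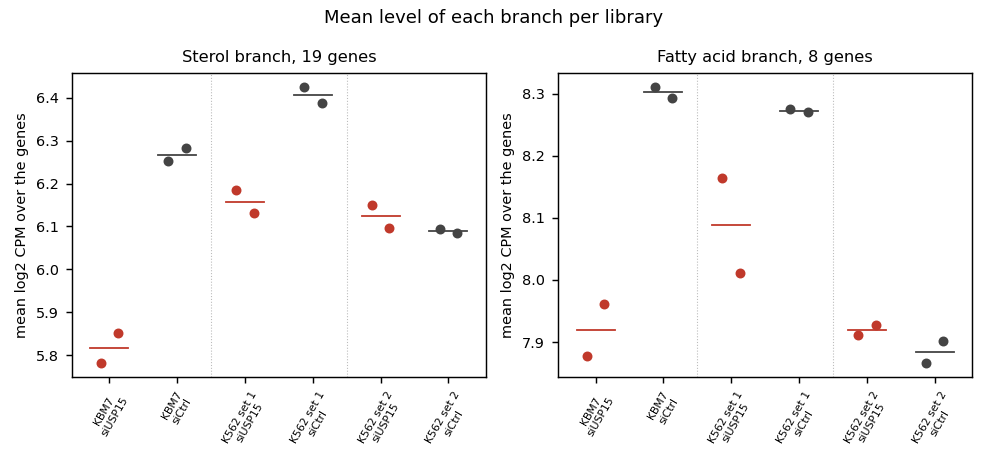
Mean log2 CPM over the 19 genes of the sterol branch (left) and the 8 of the fatty acid branch (right) in each library (points), with the mean of 2 libraries (bars). KBM7 siUSP15 libraries lie at 5.78 and 5.85 for the sterol branch, below both siCtrl libraries, and the K562 set 1 siCtrl libraries are the highest K562 libraries in both branches; the axes do not start at 0.

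Among the mevalonate enzymes, HMGCS1, the synthase that makes HMG-CoA, had 173 and 214 CPM in siUSP15 libraries, against 277 and 281 CPM in siCtrl libraries in KBM7. In K562 it had 273 and 259.8 CPM with siUSP15, against 449 and 417 CPM with siCtrl in set 1. In set 2 it had 389.6 and 372 CPM with siUSP15, against 401 and 393 CPM with siCtrl. Both siUSP15 libraries thus lay below both siCtrl libraries in all 3 pairs of groups, but in set 2 the difference was -0.06 with an interval of -0.15 to 0.03. MVK, mevalonate kinase, had 17.8 and 20.98 CPM in siUSP15 libraries, against 28.3 and 29.6 CPM in siCtrl libraries in KBM7. Set 1 of K562 had 32.4 and 29.7 CPM with siUSP15, against 37.6 and 35.3 CPM with siCtrl, and in set 2 25.02 and 27.5 CPM with siUSP15, against 25.3 and 23.2 CPM with siCtrl. The siUSP15 libraries were lower in KBM7 and set 1, with no overlap, and one of them was above both siCtrl libraries in set 2. MVD, the decarboxylase that follows, had 37.6 and 35.4 CPM in siUSP15 libraries, against 53.4 and 56.8 CPM in siCtrl libraries in KBM7. Within set 1 the level was 104 and 106 CPM with siUSP15, against 127 and 122 CPM with siCtrl, and in set 2 97.5 and 97.1 CPM with siUSP15, against 92.6 and 94.7 CPM with siCtrl, so that the siUSP15 libraries were lower in KBM7 and set 1 and above siCtrl in set 2. PMVK, phosphomevalonate kinase, went the other way: it had 12.6 and 12.7 CPM with siUSP15, against 9.44 and 10.4 CPM with siCtrl in set 1, where it rose by 0.35. In set 2 it had 15.98 and 13.4 CPM with siUSP15, against 12.6 and 13.9 CPM with siCtrl, and in KBM7 32.6 and 29.3 CPM in siUSP15 libraries, against 31.6 and 30.02 CPM in siCtrl libraries, with overlap in both. Without siCtrl replicate 1, or without siUSP15 replicate 2, the set 1 calls of MVK (adjusted p up to 0.13, edgeR) and PMVK (up to 0.128) were lost.

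IDI1, the isomerase of the isoprenoid units, had 88.2 and 94.1 CPM in siUSP15 libraries, against 118 and 116 CPM in siCtrl libraries in KBM7. The level in set 1 was 134 and 126 CPM with siUSP15, against 179 and 174 CPM with siCtrl, a log2 difference of -0.45, and in set 2 135 and 132 CPM with siUSP15, against 143 and 132 CPM with siCtrl. The groups did not overlap in KBM7 or set 1. FDPS, farnesyl diphosphate synthase, had 167 and 188 CPM in siUSP15 libraries, against 226 and 227 CPM in siCtrl libraries in KBM7. K562 set 1 had 220.3 and 209.8 CPM with siUSP15, against 242 and 238 CPM with siCtrl, and in set 2 208 and 199.6 CPM with siUSP15, against 191 and 201 CPM with siCtrl. It was lower in KBM7 and set 1, but the set 1 call was lost without siCtrl replicate 1 or siUSP15 replicate 2 (adjusted p up to 0.0782, edgeR). ACAT2, the cytosolic thiolase that opens the pathway, fell in KBM7 only among the siRNA contrasts (-0.56 ± 0.07 SE), and its log2 differences were -0.09 in set 1 and -0.01 in set 2. GGPS1, which makes the geranylgeranyl unit for protein prenylation and not for sterols, passed in none of the 7 comparisons, with log2 differences of -0.03 in KBM7, 0.09 in set 1 and -0.01 in set 2.

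Between squalene and cholesterol, FDFT1, squalene synthase, had 432 and 482 CPM in siUSP15 libraries, against 674 and 669 CPM in siCtrl libraries in KBM7. Its set 1 level was 298 and 276 CPM with siUSP15, against 418 and 393 CPM with siCtrl, and in set 2 267 and 259 CPM with siUSP15, against 276 and 278 CPM with siCtrl. The siUSP15 libraries were below the siCtrl libraries in each pair, with log2 differences of -0.56 in KBM7, -0.50 in set 1 and -0.07 in set 2, the last not past the test. SQLE, squalene epoxidase, a rate-limiting step of the sterol branch, had 269.7 and 298 CPM in siUSP15 libraries, against 466 and 490.3 CPM in siCtrl libraries in KBM7, or 59.4% of siCtrl. In set 1 it had 337 and 305 CPM with siUSP15, against 399.8 and 393 CPM with siCtrl, and in set 2 257 and 235 CPM with siUSP15, against 249 and 248 CPM with siCtrl. It was lower in KBM7 and set 1, and in set 2 the siUSP15 libraries lay on either side of siCtrl. LSS, lanosterol synthase, had 126 and 138 CPM in siUSP15 libraries, against 179 and 186 CPM in siCtrl libraries in KBM7, a log2 difference of -0.46. In K562 it was higher with siUSP15 in both sets: in set 1 it had 162 and 169.6 CPM with siUSP15, against 150.4 and 146 CPM with siCtrl. In set 2 it had 153 and 152 CPM with siUSP15, against 123 and 130.2 CPM with siCtrl, a rise of 0.27 ± 0.04 SE. LSS was the only sterol branch gene to rise in set 2, and its response differed between KBM7 and K562 (-0.68 ± 0.06 SE, adjusted p = 8.65e-09, edgeR). The set 1 call was lost without siCtrl replicate 2 or siUSP15 replicate 2 (adjusted p up to 0.0684, edgeR).

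MSMO1, the sterol methyl oxidase, had 35.7 and 42.01 CPM in siUSP15 libraries, against 58.2 and 62.7 CPM in siCtrl libraries in KBM7. Set 1 of K562 had 81.3 and 72.00 CPM with siUSP15, against 145 and 138 CPM with siCtrl, so that siUSP15 libraries held 53.9% of the siCtrl level. In set 2 it had 60.1 and 54.3 CPM with siUSP15, against 56.7 and 52.99 CPM with siCtrl, with overlap. The set 1 siCtrl libraries alone held MSMO1 above 100 CPM among the 12 libraries. CYP51A1, the lanosterol demethylase, was among the least abundant of the 36 per kilobase of exon, and had 5.01 and 4.01 CPM in siUSP15 libraries, against 7.03 and 8.60 CPM in siCtrl libraries in KBM7. Within set 1 the level was 10.8 and 11.9 CPM with siUSP15, against 12.96 and 13.4 CPM with siCtrl, and in set 2 12.6 and 11.98 CPM with siUSP15, against 11.5 and 10.8 CPM with siCtrl. It fell in KBM7 (-0.77 ± 0.15 SE) and passed in neither K562 set. TM7SF2, a sterol reductase, had 14.3 and 12.5 CPM in siUSP15 libraries, against 16.5 and 16.05 CPM in siCtrl libraries in KBM7. The level in set 1 was 10.6 and 9.74 CPM with siUSP15, against 14.1 and 13.2 CPM with siCtrl, and in set 2 8.93 and 9.22 CPM with siUSP15, against 8.62 and 8.76 CPM with siCtrl, higher in both siUSP15 libraries of set 2 without passing the test.

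HSD17B7, a sterol ketone reductase, had 7.42 and 7.30 CPM in siUSP15 libraries, against 10.5 and 9.57 CPM in siCtrl libraries in KBM7. K562 set 1 had 9.99 and 7.09 CPM with siUSP15, against 12.5 and 11.5 CPM with siCtrl, and in set 2 8.97 and 8.29 CPM with siUSP15, against 9.24 and 9.41 CPM with siCtrl. The siUSP15 libraries were lower in all 3 pairs, past the test in KBM7 and set 1, and the set 1 call was lost without siCtrl replicate 1 or siUSP15 replicate 2 (adjusted p up to 0.122, edgeR). EBP, a sterol isomerase, had 145 and 155 CPM in siUSP15 libraries, against 186 and 183 CPM in siCtrl libraries in KBM7. Its set 1 level was 109 and 105 CPM with siUSP15, against 122 and 121 CPM with siCtrl, and in set 2 109.7 and 109 CPM with siUSP15, against 116 and 112 CPM with siCtrl. Again siUSP15 was lower in all 3 pairs, past the test in KBM7 and set 1. SC5D, a sterol desaturase, had 32.7 and 34.7 CPM in siUSP15 libraries, against 45.4 and 47.8 CPM in siCtrl libraries in KBM7. In set 1 it had 30.6 and 34.3 CPM with siUSP15, against 39.6 and 40.3 CPM with siCtrl, and in set 2 32.6 and 32.04 CPM with siUSP15, against 32.4 and 31.8 CPM with siCtrl, without overlap in KBM7 and set 1 only. DHCR7, which carries out a last reduction to cholesterol, had 81.5 and 90.5 CPM in siUSP15 libraries, against 136 and 140.3 CPM in siCtrl libraries in KBM7. Set 1 of K562 had 239 and 233 CPM with siUSP15, against 249 and 244 CPM with siCtrl, and in set 2 213 and 201 CPM with siUSP15, against 189 and 199.5 CPM with siCtrl. Its fall passed the test in KBM7 (62.3% of siCtrl) and in neither K562 set. NSDHL, a sterol dehydrogenase, passed in none of the comparisons, with -0.15 in KBM7 (adjusted p = 0.0586, edgeR).

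**Figure D4:**
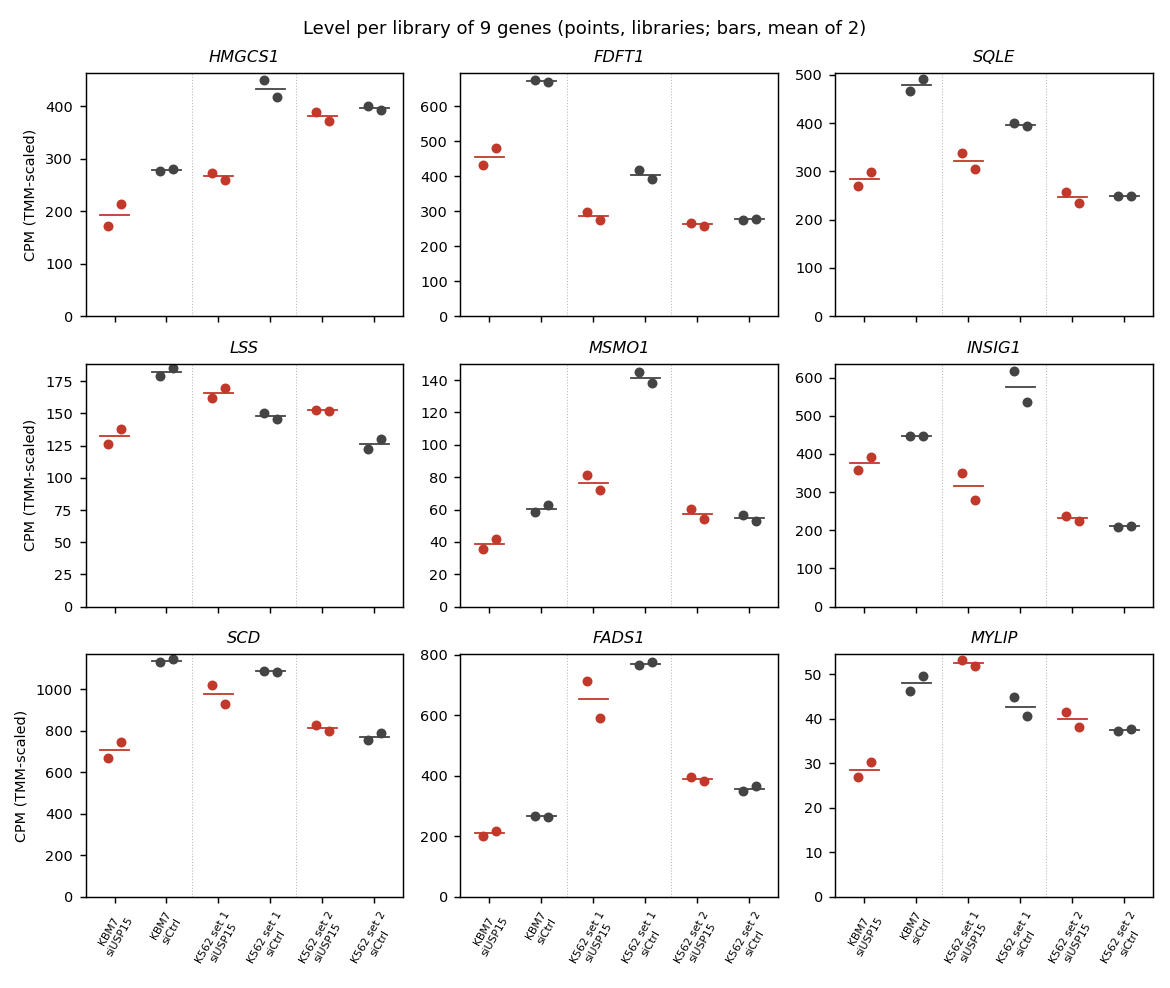
CPM of 9 genes in each library (points), with the mean of 2 libraries (bars), for siUSP15 (red) and siCtrl (grey) in KBM7, K562 set 1 and K562 set 2; axes start at 0. MSMO1 and INSIG1 are highest in the set 1 siCtrl libraries, and LSS and MYLIP lie lower with siUSP15 in KBM7 and higher with siUSP15 in both K562 sets.

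Of the regulators, SREBF2, the SREBP of the sterol genes, had 309 and 326 CPM in siUSP15 libraries, against 416 and 414 CPM in siCtrl libraries in KBM7. Within set 1 the level was 226 and 217 CPM with siUSP15, against 269 and 259 CPM with siCtrl, and in set 2 229 and 237 CPM with siUSP15, against 230.1 and 240.3 CPM with siCtrl. It fell in KBM7 (-0.39) and set 1 (-0.26) and overlapped in set 2. SREBF1, the SREBP of the fatty acid genes, fell in KBM7 only among the siRNA contrasts (-0.33 ± 0.06 SE), and its log2 differences in K562 were 0.08 in set 1 and 0.03 in set 2. Its response differed between the lines (-0.38, adjusted p = 0.000173, edgeR). INSIG1, which retains SCAP and is itself an SREBP target, had 358 and 393 CPM in siUSP15 libraries, against 446 and 448 CPM in siCtrl libraries in KBM7. The level in set 1 was 351 and 280.2 CPM with siUSP15, against 616 and 535 CPM with siCtrl, and in set 2 238 and 224 CPM with siUSP15, against 209.6 and 212 CPM with siCtrl. The siUSP15 libraries were lower in KBM7 (-0.25) and set 1 (-0.87) and above siCtrl in set 2, where the difference did not pass the test. SCAP, the escort of the SREBPs, had 120.3 and 118 CPM in siUSP15 libraries, against 129 and 129 CPM in siCtrl libraries in KBM7. K562 set 1 had 148 and 156 CPM with siUSP15, against 173 and 169.7 CPM with siCtrl, and in set 2 145 and 154 CPM with siUSP15, against 149 and 153 CPM with siCtrl. The set 1 difference of -0.17 passed the test, but not without siCtrl replicate 1 (adjusted p = 0.0688, edgeR).

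STARD4, which carries cholesterol between membranes, had 51.8 and 56.9 CPM in siUSP15 libraries, against 72.1 and 77.6 CPM in siCtrl libraries in KBM7. Its set 1 level was 81.1 and 72.1 CPM with siUSP15, against 109 and 108 CPM with siCtrl, and in set 2 68.9 and 68.6 CPM with siUSP15, against 69.6 and 69.8 CPM with siCtrl. It fell in KBM7 (-0.46) and in set 1 (-0.51). NPC1, which releases cholesterol from lysosomes, had 48.4 and 51.9 CPM in siUSP15 libraries, against 54.5 and 54.2 CPM in siCtrl libraries in KBM7. In set 1 it had 81.8 and 76.5 CPM with siUSP15, against 95.2 and 89.5 CPM with siCtrl, and in set 2 63.1 and 67.6 CPM with siUSP15, against 62.8 and 64.9 CPM with siCtrl. It passed in set 1 only among the siRNA contrasts, and not without siCtrl replicate 1 (adjusted p = 0.0551, edgeR).

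Of the LXR targets, MYLIP, a ubiquitin ligase for lipoprotein receptors, had 26.96 and 30.2 CPM in siUSP15 libraries, against 46.2 and 49.7 CPM in siCtrl libraries in KBM7, or 59.5% of siCtrl. Set 1 of K562 had 53.2 and 51.9 CPM with siUSP15, against 44.97 and 40.5 CPM with siCtrl, and in set 2 41.6 and 38.2 CPM with siUSP15, against 37.2 and 37.6 CPM with siCtrl. It was lower in KBM7 (-0.75 ± 0.07 SE), higher in set 1 (0.30 ± 0.06 SE) and above both siCtrl libraries in set 2 without passing the test. The difference between the lines, -0.94 ± 0.08 SE, was the largest in size among the genes that passed that comparison. ABCA1, a cholesterol exporter, had 63 and 49 counts in KBM7 siUSP15 libraries, against 58 and 55 in KBM7 siCtrl libraries, and did not differ past the test. In K562 it lay below the filter, with 4 and 5 counts with siUSP15 against 17 and 14 with siCtrl in set 1, and 3 and 2 counts with siUSP15 against 2 and 1 with siCtrl in set 2. The set 1 siCtrl libraries again held the most, but no test was made below the filter. ABCG1, another exporter, had 0 to 3 counts in each of the 12 libraries, too few for a comparison.

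Among the fatty acid enzymes, FASN, fatty acid synthase, had 463 and 452 CPM in siUSP15 libraries, against 668 and 677 CPM in siCtrl libraries in KBM7. Within set 1 the level was 1147 and 1015 CPM with siUSP15, against 1309.5 and 1287 CPM with siCtrl, and in set 2 1067 and 1223 CPM with siUSP15, against 953 and 1047 CPM with siCtrl. It fell in KBM7 and set 1, and in set 2 both siUSP15 libraries were above both siCtrl libraries, by 0.20, which did not pass the test. SCD, the desaturase that makes oleate, had 667 and 744 CPM in siUSP15 libraries, against 1129.9 and 1147 CPM in siCtrl libraries in KBM7, or 62.0% of siCtrl. The level in set 1 was 1022 and 931 CPM with siUSP15, against 1089 and 1083 CPM with siCtrl, and in set 2 829 and 799.8 CPM with siUSP15, against 754 and 788 CPM with siCtrl. The KBM7 fall was the fourth in size among the 36 genes, whereas the set 1 difference was -0.15. ELOVL6, an elongase of saturated chains, had 68.9 and 71.5 CPM in siUSP15 libraries, against 93.9 and 94.8 CPM in siCtrl libraries in KBM7. K562 set 1 had 99.6 and 93.1 CPM with siUSP15, against 125 and 122 CPM with siCtrl, and in set 2 105 and 102 CPM with siUSP15, against 119 and 114 CPM with siCtrl. The siUSP15 libraries were below the siCtrl libraries in all 3 pairs, and the set 2 difference of -0.17 came to an adjusted p of 0.0544 (edgeR). The set 1 calls of FASN (without siUSP15 replicate 2, adjusted p = 0.0591) and SCD (without siCtrl replicate 1, siCtrl replicate 2 or siUSP15 replicate 2, up to 0.139, edgeR) were lost.

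FADS1 and FADS2 are neighbouring desaturases of polyunsaturated chains. FADS1 had 202 and 219 CPM in siUSP15 libraries, against 269 and 263 CPM in siCtrl libraries in KBM7. Its set 1 level was 715 and 593 CPM with siUSP15, against 768 and 775 CPM with siCtrl, and in set 2 396 and 384 CPM with siUSP15, against 350.2 and 366 CPM with siCtrl. It fell in KBM7 (-0.34) and set 1 (-0.24), and the set 1 call was lost without siUSP15 replicate 2 (adjusted p = 0.072, edgeR). FADS2 had 396 and 422 CPM in siUSP15 libraries, against 574 and 571 CPM in siCtrl libraries in KBM7. In set 1 it had 52.3 and 49.4 CPM with siUSP15, against 43.6 and 46.2 CPM with siCtrl, and in set 2 45.1 and 45.5 CPM with siUSP15, against 44.7 and 43.5 CPM with siCtrl. It fell in KBM7 (-0.49) and rose in set 1 (0.17), the rise being lost without siCtrl replicate 1 (adjusted p = 0.158, edgeR). ACSS2, which makes acetyl-CoA from acetate, had 62.7 and 64.4 CPM in siUSP15 libraries, against 68.6 and 70.4 CPM in siCtrl libraries in KBM7. Set 1 of K562 had 77.4 and 67.6 CPM with siUSP15, against 116 and 103 CPM with siCtrl, and in set 2 51.2 and 48.1 CPM with siUSP15, against 52.5 and 51.99 CPM with siCtrl. It fell in set 1 (-0.60 ± 0.06 SE) and did not pass in KBM7 (adjusted p = 0.0677, edgeR). ACLY, which makes cytosolic acetyl-CoA from citrate (-0.25), and ACACA, acetyl-CoA carboxylase (-0.19), fell in KBM7 and passed in neither K562 set.

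KBM7 and K562 set 1 share no library, so their calls can be set side by side. Of the 34 genes tested in both, 28 fell in KBM7, 22 in set 1 and 19 in both, which is 67.9% of the 28 and 86.4% of the 22. Over the 12412 genes tested in both tables, 615 (4.95%) fell in both, which is 29.8% of the 2067 in KBM7 and 26.1% of the 2355 in set 1. With most of the 34 genes lower in each, their joint count largely follows from the separate counts. Over the 34 genes the log2 differences of KBM7 and set 1 had a Pearson r of 0.14 and a Spearman rho of 0.14, and over all genes tested in both tables r was 0.06. These are correlations across genes, which are not independent replicates. The order of the falls was thus little shared: INSIG1 and ACSS2 were among the largest in set 1 and among the smaller in KBM7, and DHCR7 and SCD the reverse.

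**Figure D5:**
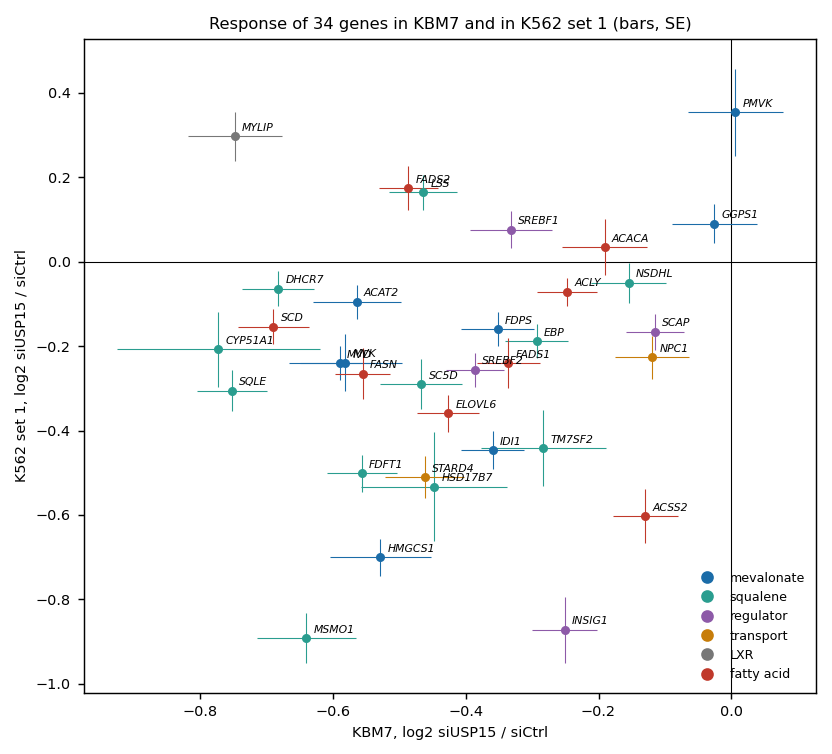
Log2 difference of siUSP15 against siCtrl in KBM7 (horizontal) and in K562 set 1 (vertical) for the 34 genes tested in both, with standard errors (lines) and colours for the role. Most genes lie in the lower left part. MYLIP, LSS and FADS2 passed the test as lower in KBM7 and higher in set 1. GGPS1, SREBF1 and ACACA lie on the same sides without passing in set 1.

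The responses of the lines were then compared directly, KBM7 minus the mean of both K562 sets. Of 35 genes, 21 had a lower response in KBM7 and 1, ACSS2, a higher one (edgeR, 15833 genes), while over all genes the KBM7 response was lower for 12.6% and higher for 10.6%. The median difference was -0.25 over the 35 genes and -0.01 over all genes. The K562 mean takes in set 2, where 0 of 34 genes fell, and the sets themselves differed in 18 of 34 genes. A response lower in KBM7 than this mean need not be lower than that of set 1. STARD4 passed, although its fall was larger in set 1 than in KBM7. The ACSS2 call was not made by DESeq2 or limma-voom, which called 18 and 20 of the 35 genes, all lower. Of all genes they called 2730 and 3716 in either direction. Next to MYLIP, CYP51A1 (-0.74), DHCR7 (-0.69), LSS (-0.68), SCD (-0.65) and FADS2 (-0.59) differed most, while HMGCS1 (-0.14), IDI1 (-0.11) and INSIG1 (0.12) did not pass. The response of USP15 differed by 0.05 with an interval of -0.08 to 0.19. With each library left out in turn 17 of the 22 calls held: those of EBP (adjusted p up to 0.224, edgeR), STARD4 (up to 0.305), ACLY (0.063, without KBM7 siUSP15 replicate 1), ACACA (up to 0.203) and ACSS2 (up to 0.152) did not. EBP, STARD4, ACACA and ACSS2 were each lost without KBM7 siUSP15 replicate 1, without K562 siCtrl replicate 1 and without further libraries.

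Another 21 genes of the same pathways, not among the 36, were counted beside them. In KBM7 2 of the 21 rose and 4 fell, while 13.2% of all genes rose and 15.8% fell. MBTPS2, a protease that frees SREBPs, rose by 0.40, and ACSL1, an acyl-CoA synthetase, by 0.20, while ME1, malic enzyme (-0.57), ELOVL5, an elongase (-0.34), PANK3, a kinase of coenzyme A synthesis (-0.26), and ACSL3, an acyl-CoA synthetase (-0.15), fell. In K562 set 1, MBTPS1, another SREBP protease, was the 1 gene that rose (0.24), and 5 fell, MBTPS2 (-0.41) and ACSL3 (-0.36) among them, while 18.0% of all genes rose and 18.7% fell. In set 2 edgeR called 0, and 5 had an unadjusted p under 0.05, as did 2329 of all 13731 genes tested. MBTPS2 was thus higher with siUSP15 in KBM7 and lower in set 1, and its response differed between the lines (0.73 ± 0.08 SE). The median over the 21 genes was -0.08 in KBM7, -0.09 in set 1 and 0.01 in set 2. In the siCtrl libraries 14 of the 21 were higher in set 1 than in set 2 and 2 were lower, against 29.7% and 27.2% of all genes.

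Per kilobase of exon, SCD had the highest mean level of the 36 genes in each group, at 134.5 ± 10.3 CPM per kb in KBM7 siUSP15 libraries and 217 ± 2.25 in KBM7 siCtrl libraries (SD, n = 2 each). In K562 it was at 171 ± 19.4 CPM per kb with siUSP15 and 177 ± 34.8 with siCtrl (SD, n = 4 each). FASN came next over all K562 libraries, at 119 ± 9.79 CPM per kb with siUSP15 and 123 ± 18.99 with siCtrl. In the siCtrl libraries of set 1, however, INSIG1 stood above it, at 158 ± 15.7 CPM per kb against 139 ± 1.67 for FASN (SD, n = 2). ABCG1 and ABCA1 were the lowest in both lines, both under 0.2 CPM per kb. Some levels may be affected by overlap with other genes. In GENCODE v44, genes on the same strand overlap 68.2% of the exon bases of CYP51A1, 37.3% for GGPS1 and 36.4% for EBP. A gene on the opposite strand overlaps 37.7% of the exon bases of HMGCS1. CYP51A1, FDPS, HSD17B7 and SCD also have pseudogene copies in the tables. The paper names an older Ensembl annotation, so the overlaps and exon lengths used here need not be those behind the counts. Whether the counting used strand is not given in the sources used here, so levels of these genes are uncertain.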

How the data were processed

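The authors deposited, for each cell line, raw counts of reads per gene, which were the only values used. The submitters' processing notes name TopHat2 2.1.0, hg38, HTSeq, edgeR and limma; the paper names another counter. A further 12 columns of log2 values per library and the authors' own comparison columns (group means, fold changes and adjusted p-values) were not used. Rows were matched by gene symbol.

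Genes were filtered with filterByExpr and scaled by TMM in edgeR 4.0.16 (R 4.3.3). The quasi-likelihood test, 2-sided, was applied at a Benjamini-Hochberg adjusted p under 0.05 over all genes: 14980 in KBM7, 13731 in K562 and 15833 for both lines. K562 was fitted with the set as a block, and with a mean for each set and siRNA for the contrasts within and between sets. The test was tried on simulated counts first. Members, lists and tests were chosen with earlier results of these data known. All 36 members are named; values in every library are given for members called in at least 2 of 6 comparisons (KBM7, K562 blocked, each set, the difference of the sets, the siCtrl libraries of the sets) and for the 4 largest changes in KBM7 and in blocked K562.

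No libraries were copies of each other. Deviations from the siRNA group means correlated at 0.59 to 0.75 between same-numbered K562 libraries. From the means of set and siRNA the correlation was 0.029 in set 1 and 0.11 in set 2. The higher values thus hold the difference of the sets, and no pairing by number is shown within a set. In KBM7 the correlation from the siRNA group means was -0.0041. The alternatives tried were no filter on low counts, RLE size factors, DESeq2 1.42.0, limma-voom (limma 3.58.1), each library left out, the replicate block, no set block, fits of each set alone or of all 12 libraries, and adjusted p under 0.01 or 0.1. Unblocked counts by DESeq2 and limma-voom were added after the data had been seen. Promoter windows come from RefSeq on GRCh38.p14 and exon lengths and overlaps from GENCODE v44. Depth limits the rare genes: the filter left out ABCG1 in both lines and ABCA1 in K562.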

Additional observations from a re-analysis of the deposited data

Results flagged for a closer look

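The response to siUSP15 differed between the K562 sets in 18 of the 34 genes tested and in USP15 (interaction of set and siRNA, edgeR, adjusted p under 0.05). The difference of the log2 responses, set 1 minus set 2, was -0.64 for HMGCS1, -0.35 for MVK, -0.30 for MVD, -0.40 for IDI1, -0.22 for FDPS, -0.43 for FDFT1, -0.29 for SQLE, -0.50 for TM7SF2, -0.96 for MSMO1, -0.30 for SC5D, -0.24 for SREBF2, -1.01 for INSIG1, -0.49 for STARD4, -0.26 for NPC1, -0.46 for FASN, -0.23 for SCD, -0.36 for FADS1, -0.53 for ACSS2 and -0.32 for USP15. All of these had a negative sign, and for USP15 it means a lower level relative to siCtrl in set 1 than in set 2.

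The response also differed between the cell lines, KBM7 against the mean of both K562 sets, in 22 of the 35 genes tested. The difference of the log2 responses, KBM7 minus K562, was -0.51 for ACAT2, -0.52 for MVK, -0.49 for MVD, -0.30 for FDPS, -0.26 for FDFT1, -0.59 for SQLE, -0.68 for LSS, -0.74 for CYP51A1, -0.16 for EBP, -0.32 for SC5D, -0.69 for DHCR7, -0.38 for SREBF1, -0.25 for SREBF2, -0.19 for STARD4, -0.94 for MYLIP, -0.19 for ACLY, -0.27 for ACACA, -0.52 for FASN, -0.65 for SCD, -0.27 for FADS1, -0.59 for FADS2 and 0.21 for ACSS2. ACSS2 was the 1 gene with a positive sign.

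In 74 groups of 4 K562 libraries, 1 library stood apart from the other 3: for ABCG1 in siCtrl the gap to the nearest library made up 1 of the whole range, since 3 libraries had 0 counts and replicate 4 had 1 count. The rule is set so that chance alone singles out about 5% of groups of 4 alike libraries. Each group here pools both K562 sets, which differ, so that share need not apply.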

How the results depend on the processing

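The counts of genes called held within 1.5 times in KBM7 (28), set 1 (26), the siCtrl libraries of the sets (25) and the difference of the lines (22) under each alternative run. The K562 count with the set as a block (9) was 14 with no filter on low counts, 2 with the replicate block, 0 with no set block, 19 in the fit of 12 libraries, 2 at an adjusted p under 0.01 and 14 under 0.1, and 2 to 12 with a library left out. For set 2 (1) it was 3 with no filter, 3 with the replicate block, 2 at an adjusted p under 0.1 and 0 to 3 with a library left out. For the difference of the sets (18) it was 9 at an adjusted p under 0.01 and 8 to 19 with a library left out. Over all genes, blocked K562 gave 2167 calls, 2818 with no filter, 1022 with the replicate block and 0 with no set block. The fit of 12 libraries gave 3839, and the thresholds of 0.01 and 0.1 gave 518 and 3493. Set 2 gave 335 over all genes, 639 with no filter, 631 with the replicate block and 583 at 0.1. The difference of the sets gave 1784 over all genes and 521 at 0.01. The cause of the moves in these counts was not tested, apart from the fewer libraries and the other thresholds themselves. The replicate block gave 28 calls in KBM7, 27 in set 1 and 19 for the difference of the sets. Of single-gene values, 3517 kept their side of the threshold, 220 lost and 72 gained a call, and 0 changed sign while called. The median of the fatty acid branch in set 1 was -0.098 without siUSP15 replicate 2, that in blocked K562 turned to 0.021 without siUSP15 replicate 2, and that of the sterol branch in set 2 to -0.0033 without siUSP15 replicate 3. ABCG1 in both lines and ABCA1 in K562 were too rare at this depth to be tested.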
